A study of Homo sapiens with 10 samples.

Results

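The 48 DNA replication genes described here were taken from a list of symbols for the proteins that license, unwind and copy DNA, and were matched through GENCODE 29 to the Ensembl identifiers of the count files. All 48 were found among the 63677 genes listed per library, and all 48 passed the filter on low counts with which 16756 genes were tested. RS4;11 is an established line of leukemic B-cell precursors, and Venetoclax (VEN) is an inhibitor of the anti-apoptotic protein BCL-2. The 5 VENins lines were grown from RS4;11 under rising concentrations of VEN until they had become insensitive to it, whereas 5 VENsens lines received the solvent DMSO over the same time and stayed sensitive. By the study's methods, VENins cultures stayed under VEN until it was washed out ahead of an analysis, and VENsens cultures grew without it, so that this lasting exposure differs between the groups. All 10 lines descend from the same parental line, with 1 RNA-Seq library each, so that p-values measure the spread between lines of this single model. The libraries held 20631907 to 28323643 counts on genes in VENsens lines and 21145316 to 25394653 in VENins lines. The question addressed was whether the transcripts of the replication machinery differed between lines that had become insensitive to VEN and lines that had not.

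DNA replication begins when the origin recognition complex and its partners CDC6 and CDT1 load the ring-shaped MCM2-7 helicase onto DNA in G1, a step called licensing, which geminin (GMNN) blocks after S phase has begun. The DBF4-dependent kinase CDC7, CDC45 and the GINS complex then turn the loaded ring into an active helicase, and primase, the polymerases, the PCNA clamp and its RFC loader copy the strands. Many of these genes are transcribed at the passage from G1 to S under the control of E2F factors, and their transcripts are commonly abundant in proliferating leukemia cells. RNA from a culture averages over cells in all phases, so that fewer cells in S phase and less RNA per cell cannot be told apart.

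The B-lineage identity of the libraries was checked on marker genes. All 10 B-cell precursor markers were tested, and their summed level was 3109 to 3269 CPM (counts scaled to the normalized size of each library) in VENsens and 3020 to 3321 CPM in VENins lines. PAX5, a B-lineage transcription factor and the most abundant of them, averaged 783 ± 42.9 CPM in the VENsens group and 631 ± 34.7 CPM in the VENins group (± SD of 5 lines, here and below). Its log2 fold change of -0.31 had an adjusted p of 0.0272 in the quasi-likelihood test of edgeR. The 10 markers did not go in the same direction, with 5 higher and 5 lower in VENins lines by the fitted log2 fold change, and PAX5 was the only one called. DNTT counts as lower in this tally, although its mean was higher in VENins lines through line 4 at 27.3 CPM. The 5 T-cell markers together reached at most 1.08 CPM, with CD3E as the most abundant and CD8A at 0 in all 10 libraries. The 5 myeloid markers summed to 4.83 to 6.80 CPM and were led by ITGAM, and the 3 stromal markers summed to 13.2 to 19.0 CPM and were led by PDGFRB.

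None of the 48 replication genes passed an adjusted p of 0.05 in edgeR's quasi-likelihood test with the line number in the model, where 33 of the 16756 tested genes did (0.197%). At an unadjusted p under 0.05 in the same test there were 8 of 48 genes (16.7%), a share close to the 16.2% of all tested genes. A pair is a VENsens and a VENins line of the same number. Such lines were not alike in their values (r from -0.36 to 0.12), so that counts over pairs are not counts of matched replicates. The count of 8 depended on single pairs, with 13 genes (27.1%, against 16.45%) without pair 5 and 4 (8.33%, against 8.41%) without pair 2. The shares stayed close without pair 2 but lay apart without pair 5. Of these 8, GMNN, DBF4, ORC6 and PCNA were higher in VENins lines, a direction with 7.79% of all tested genes, and ORC1, MCM2, GINS4 and RFC1 were lower, a direction with 8.38%. The median log2 fold change of the 48 genes was 0.01, against 0.00 for all tested genes, and 25 were higher and 23 lower. The individual log2 fold changes ran from -0.17 for ORC1 to 0.25 for DBF4, with a median standard error of 0.06. DESeq2, an alternative tool, called DBF4 with the line number in the model (1.69% of genes with an adjusted p were called) and DBF4, GMNN and RFC1 without it (6.05%), while edgeR without the line number called DBF4 alone (0.889%). The unadjusted p was under 0.05 for 7 genes in DESeq2 with the line number (11.65% of all genes), and without it for 10 in DESeq2 (17.5%) and 10 in edgeR (18.2%). With no filter on low counts, edgeR called DBF4 and GMNN, in a fit that called 2.02% of 32884 genes.

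**Figure D1:**
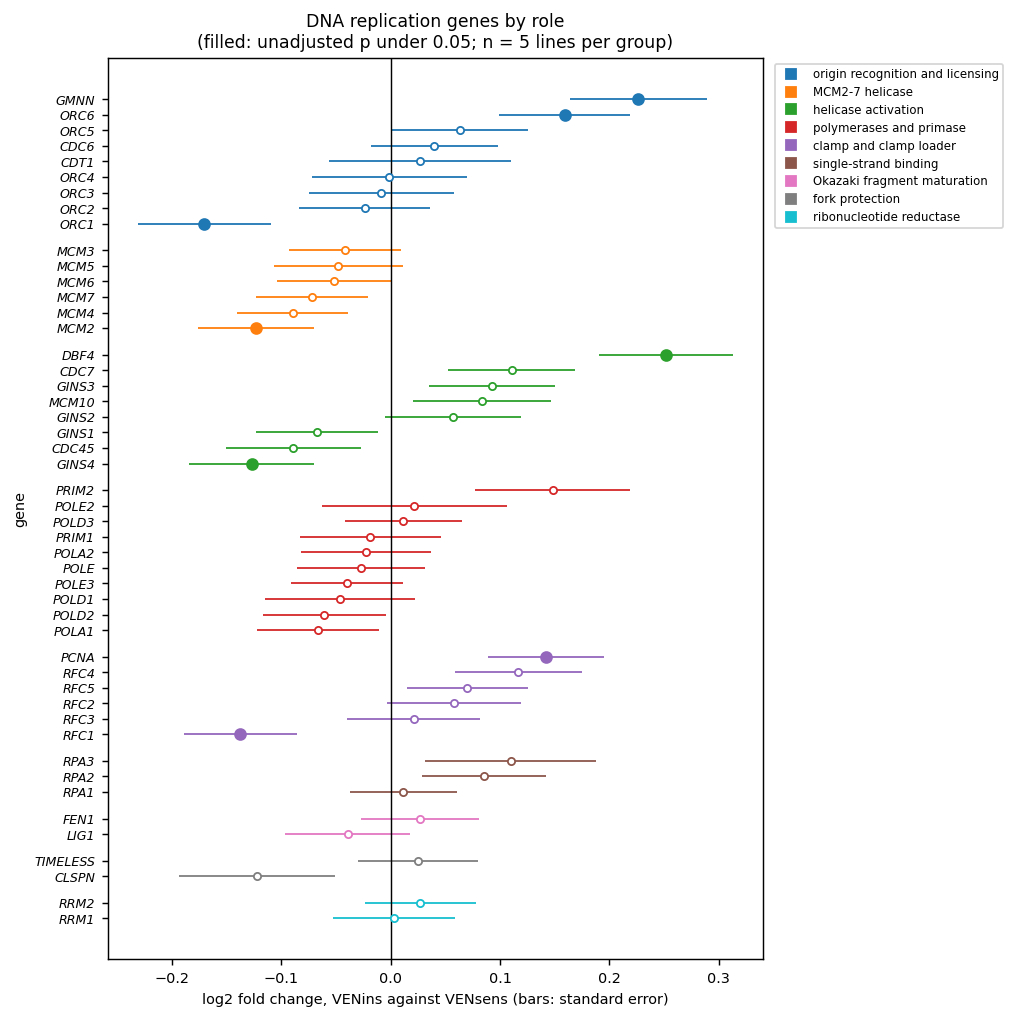
Log2 fold change of VENins against VENsens lines for each of the 48 genes (x axis) by role, with bars of 1 standard error. Points are filled for the 8 genes with an unadjusted p under 0.05, and all 6 genes of the MCM2-7 helicase lie below 0.

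Taking the level of the genes per length of their exons, PCNA was the most abundant at 325 ± 22.6 CPM per kb in VENsens and 359 ± 16.4 CPM per kb in VENins lines. MCM7 followed at 236 ± 15.8 and 225 ± 15.7 CPM per kb, then MCM3 at 168 ± 12.2 and 163 ± 6.69 CPM per kb and POLE3 at 136 ± 4.43 and 132 ± 4.54 CPM per kb. These 4 levels were apart from each other by more than their SDs, whereas those of MCM2, MCM4 and MCM6, the next in VENsens lines, lay apart by less than the sum of their SDs. The lowest level was that of ORC4, a subunit of the origin recognition complex, at 3.51 ± 0.228 CPM per kb in VENsens and 3.51 ± 0.279 CPM per kb in VENins lines. The length taken was that of all annotated exons of a gene together, 8915 bases for ORC4. It can exceed the length of the transcript in use, so that the order of the genes depends on the annotation. Even the gene with the fewest counts, POLE2, had at least 263 counts in every library.

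**Figure D2:**
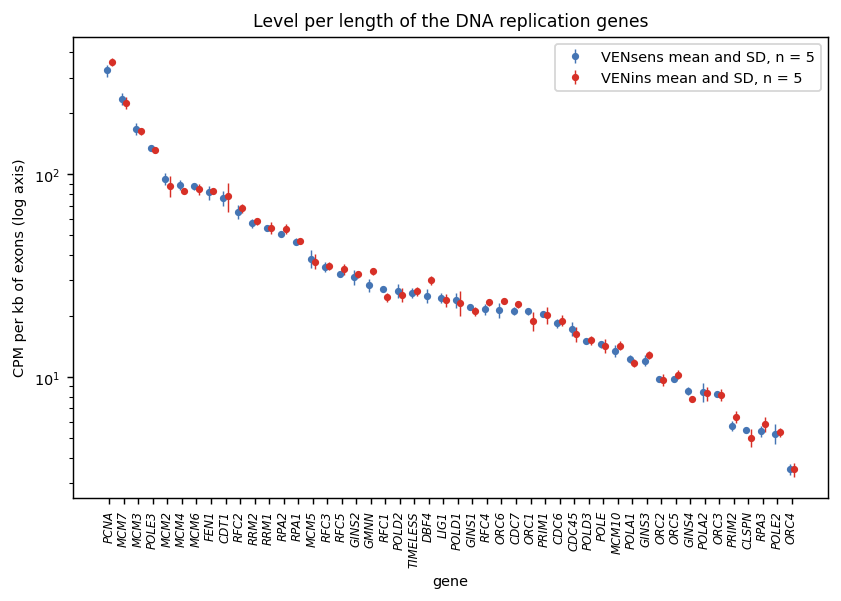
Level per length of the 48 genes in CPM per kb of exons (log axis), as the mean and SD of 5 lines per group, in the order of the VENsens mean. PCNA is at the upper end and ORC4 at 3.51 CPM per kb at the lower end, and the group means of most genes lie within each other's SD.

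Among the 9 genes of origin recognition and licensing, 5 were higher and 4 lower in VENins lines, with a median log2 fold change of 0.03. GMNN (ENSG00000112312, chromosome 6, 24774931 to 24786099 in GRCh38) encodes geminin, which binds CDT1 and prevents a second licensing. Its level was 66.3, 64.2, 76.8, 70.5 and 74.1 CPM in VENsens lines 1 to 5, and 82.2, 86.7, 81.6, 83.1 and 77.9 CPM in VENins lines 1 to 5. Every VENins line was above every VENsens line, and VENsens line 3 came closest to VENins line 5. The log2 fold change was 0.23 (standard error 0.06, adjusted p = 0.116 by the test of edgeR).

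ORC1, the largest subunit of the origin recognition complex, had 66.7, 62.6, 68.2, 66.5 and 69.9 CPM in VENsens lines 1 to 5 and 55.4, 51.4, 62.7, 68.4 and 59.8 CPM in VENins lines 1 to 5. The groups overlapped, since VENins line 4 was above most VENsens lines and VENsens line 2 was below VENins lines 3 and 4. Its log2 fold change was -0.17 (standard error 0.06, adjusted p = 0.19 by the test of edgeR). ORC6, another subunit of the complex, was at 92.0 ± 7.498 CPM among VENsens and 102 ± 3.01 CPM among VENins lines, and its log2 fold change was 0.16 (adjusted p = 0.208 by edgeR). The remaining subunits ORC2 to ORC5 had log2 fold changes between -0.02 and 0.06. CDT1, the licensing factor with the highest level per length in this role (76.2 ± 6.42 CPM per kb in VENsens lines), differed little between the groups but much between lines. It was at 286, 230, 261, 253 and 241 CPM in VENsens lines 1 to 5, and at 223, 229, 251, 273 and 328 CPM in VENins lines 1 to 5. VENins line 5 held the highest value of all 10 lines, and without pair 5 the log2 fold change of 0.03 became -0.08.

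All 6 genes of the MCM2-7 helicase had a negative log2 fold change, with a median of -0.06, and 5 of the 6 did so without pair 1, where MCM5 was at 0.01. The size of the difference leaned on pair 1: without it the median was -0.03, and the median difference within pairs was -0.21 in pair 1 and between -0.06 and 0.01 in the others. None passed the adjusted test. MCM2, which had an unadjusted p of 0.0355 in edgeR's quasi-likelihood test, stood at 481, 416, 454, 494 and 490.3 CPM in VENsens lines 1 to 5 and at 398, 364, 443, 462 and 487 CPM in VENins lines 1 to 5. VENins lines 1 and 2 were the lowest, while VENsens line 2 was also low and VENins line 5 was in the range of the VENsens lines. Its log2 fold change was -0.12 (standard error 0.05, adjusted p = 0.273), lower in each of the 5 line pairs. MCM4 was at 616 ± 35.6 and 579 ± 17.6 CPM and MCM7 at 1037 ± 69.5 and 987 ± 68.8 CPM in VENsens and VENins lines, with log2 fold changes of -0.09 and -0.07. MCM3 (-0.04), MCM5 (-0.05) and MCM6 (-0.05) had the smallest log2 fold changes of the ring. With pairs left out, MCM3 ran from -0.0709 to -0.006 and MCM6 from -0.0856 to -0.0208. With the trend of each library on gene length removed, MCM4 was at -0.0475 and MCM5 at -0.0026. Part of the exons of MCM7 (8.9%) overlaps the gene AP4M1 on the opposite strand, and 22.7% of those of MCM2 overlap the antisense gene AC023593.1, which is not listed in the files. The library kit does not mark the strand, so that reads from those stretches cannot be told apart. Reads shared with AP4M1, which is listed in the files, may have been set aside as ambiguous. Those of AC023593.1 could have been counted for MCM2.

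The promoters of 3 helicase genes and of 3 other named replication genes are shown because they carry letters known as E2F binding words, and E2F factors are the textbook regulators of these genes. RefSeq promoter windows (GRCh38.p14), which run from 250 bases before to 50 bases after a start site, were found for 42 of the 48 genes, which had 55 windows. The 6 genes without an entry were MCM4, MCM5, GINS4, POLD3, RPA2 and RPA3. In all, 6 sets of words were searched on both strands, all chosen after the expression values had been seen. The words TTTCCCGC, TTTCGCGC, TTTGCCGC and TTTGGCGC were present in 20 of the 42 genes (47.6%), and in 36.4% of the 55 windows against 4.81% of the 14445 windows of tested genes and 3.31% of all 35116 windows. The words TTCCCGCC and TTGGCGC, which overlap with these, were present in 23 of the 42 genes (11.7% of tested genes). GGCGGGAA, the reverse complement of TTCCCGCC, was present in 11 (6.17%). These 11 are among the 23, because both strands were searched. CCAAT was present in 25 of the 42 genes (43.0% of tested genes) and TATAAA in 2 (8.32%). TTTGAA, known as the core of the CHR element of mitotic promoters, was present in 3 of the 42 genes, DBF4, POLE3 and RRM1, and in 13.8% of tested genes. Among 34 mitotic genes with a window it was present in 25, and the first set of words in 3. The following stretches of 100 bases lie before the start site, are given 5′ to 3′ on the strand of the gene, and have the first set of words, read on either strand, in capitals. These start sites are those of RefSeq and differ from the gene ends of GENCODE, so that the stretches of GMNN and MCM7 lie inside the GENCODE span of the gene and that of MCM3 lies partly inside.
MCM3 (chr6:52284863-52284962, minus strand): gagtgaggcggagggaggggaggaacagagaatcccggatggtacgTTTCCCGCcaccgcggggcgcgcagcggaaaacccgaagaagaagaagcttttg
MCM6 (chr2:135876476-135876575, minus strand): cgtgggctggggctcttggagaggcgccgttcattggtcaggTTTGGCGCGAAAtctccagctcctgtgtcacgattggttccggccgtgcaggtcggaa
MCM7 (chr7:100101398-100101497, minus strand): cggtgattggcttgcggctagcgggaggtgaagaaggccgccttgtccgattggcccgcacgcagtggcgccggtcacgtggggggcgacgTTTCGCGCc
GMNN (chr6:24775287-24775386, plus strand): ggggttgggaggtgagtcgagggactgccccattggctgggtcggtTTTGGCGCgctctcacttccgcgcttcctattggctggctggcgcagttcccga
PCNA (chr20:5126628-5126727, minus strand): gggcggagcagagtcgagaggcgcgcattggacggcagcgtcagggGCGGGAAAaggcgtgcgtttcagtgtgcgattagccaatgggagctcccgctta
POLA1 (chrX:24693735-24693834, plus strand): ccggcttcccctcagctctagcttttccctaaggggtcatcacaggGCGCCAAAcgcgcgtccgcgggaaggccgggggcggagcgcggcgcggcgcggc

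In MCM6, 2 of the words overlap in opposite directions. The 20 genes with a word of the first set had log2 fold changes with a median of -0.02, with 9 higher and 11 lower, and the 22 without had a median of 0.02, with 13 higher and 9 lower. A match describes these letters only, and binding of a factor was not measured.

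Of the 8 genes that activate the helicase, 5 were higher and 3 lower in VENins lines, with a median log2 fold change of 0.07. DBF4 (ENSG00000006634, chromosome 7, 87876216 to 87909541 in GRCh38), the regulatory subunit of the CDC7 kinase, had the smallest unadjusted p of the 48 genes. It was at 102, 112, 125, 119 and 119 CPM in VENsens lines 1 to 5, and at 141, 144, 139, 136 and 127 CPM in VENins lines 1 to 5. The groups did not overlap, although VENsens line 3 and VENins line 5 were close to each other. The log2 fold change was 0.25 (standard error 0.06, adjusted p = 0.09 by the test of edgeR), a 1.19-fold difference. The pseudogene DBF4P1 on chromosome 10 carried 33.0% as many counts as DBF4 over the 10 libraries, so that reads could have been split between the copies and the value is uncertain. DBF4P1 itself averaged 39.1 ± 4.85 CPM in the VENsens group and 44.4 ± 2.41 CPM in the VENins group, and its log2 fold change was 0.19. For CDC7, the catalytic subunit, the log2 fold change was 0.11 (adjusted p = 0.367 by edgeR), and it was higher in 5 of 5 pairs. In pair 5 its values were nearly equal, at 76.03 CPM in the VENsens line and 76.06 CPM in the VENins line.

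GINS4, a subunit of the GINS complex, was at 47.9, 44.5, 44.9, 48.6 and 48.03 CPM in VENsens lines 1 to 5, and at 44.4, 41.7, 43.3, 43.1 and 41.6 CPM in VENins lines 1 to 5. The groups did not overlap, but VENsens lines 2 and 3 were close to VENins line 1. Its log2 fold change was -0.13 (standard error 0.06, adjusted p = 0.288 by the test of edgeR). An antisense gene, AC009630.2, overlaps 21.2% of its exons, and without strand the reads of that stretch cannot be told apart. Since AC009630.2 is also listed in the files, such reads may have been set aside as ambiguous instead of counted for GINS4. The strand setting that decides this is not given. GINS2, another subunit and the one with the highest level per length in this role, was at 101 ± 8.79 and 105 ± 4.27 CPM in VENsens and VENins lines, a log2 fold change of 0.06 that was 0.00 without pair 2.

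**Figure D3:**
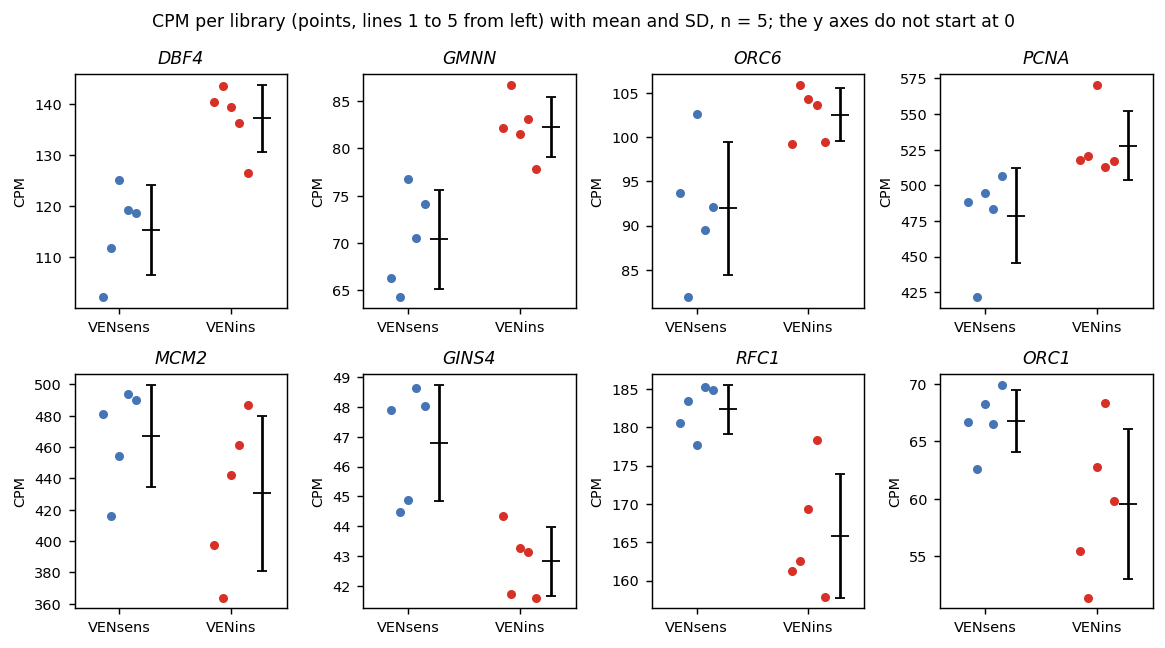
CPM per library (points, lines 1 to 5 from left to right) with mean and SD for the 8 genes with an unadjusted p under 0.05; the y axes do not start at 0. DBF4, GMNN and PCNA are higher in every VENins line than in every VENsens line and GINS4 is lower, while the groups overlap for ORC6, MCM2, RFC1 and ORC1.

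Groups that do not overlap, counted without a test, were found for 4 of the 48 genes, against 4.66% of all tested genes. They were DBF4, GMNN and PCNA among the higher genes (2.36% of all tested genes) and GINS4 among the lower ones (2.3%). The count depended on the scaling: after scaling by library size alone PCNA remained, and with the trend of each library on gene length removed DBF4 remained. The share of all tested genes is given for the main scaling only, so these changes cannot be set against those of all genes.

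The 10 genes of polymerases and primase had no gene with an unadjusted p under 0.05 in edgeR's test, with 3 higher, 7 lower and a median log2 fold change of -0.02. PRIM2, the large subunit of primase, was at 26.9 ± 1.62 and 29.8 ± 1.92 CPM in VENsens and VENins lines, a log2 fold change of 0.15 (adjusted p = 0.32). POLA1, the catalytic subunit of polymerase alpha, had a log2 fold change of -0.07 and POLE3, an accessory subunit of polymerase epsilon, one of -0.04. Without pair 5 that of POLA1 was -0.0363 and that of POLE3 -0.0046. With the length trend removed POLA1 was at -0.0318. POLD1, the catalytic subunit of polymerase delta, ranged from 102 to 141 CPM in VENins lines, with line 5 as the highest.

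Among the 6 genes of the clamp and clamp loader, 5 were higher and RFC1 was lower. PCNA (ENSG00000132646, chromosome 20, 5114953 to 5126626 in GRCh38), the clamp that holds polymerases on DNA, was at 488, 421, 494, 483 and 506 CPM in VENsens lines 1 to 5 and at 518, 520.3, 571, 513 and 517 CPM in VENins lines 1 to 5. VENsens line 2 was low and VENins line 3 was high within their groups. Every VENins line was above every VENsens line. The log2 fold change was 0.14 (standard error 0.05, adjusted p = 0.207 by the test of edgeR). Pseudogenes of PCNA held 6.72% as many counts as PCNA. RFC1, the large subunit of the loader, was at 181, 183, 178, 185 and 185 CPM in VENsens lines 1 to 5 and at 161, 163, 169, 178 and 158 CPM in VENins lines 1 to 5. The groups overlapped by a narrow margin, through VENsens line 3 and VENins line 4. Its log2 fold change was -0.14 (standard error 0.05, adjusted p = 0.208), lower in each of the 5 pairs. RFC4 was higher in 5 of 5 pairs, with a log2 fold change of 0.12 (adjusted p = 0.336).

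The 3 subunits of the single-strand binding protein RPA had log2 fold changes of 0.01 (RPA1), 0.09 (RPA2) and 0.11 (RPA3), with no unadjusted p under 0.05. Without pair 2 those of RPA2 and RPA3 were both 0.05. Pseudogenes held 17.8% as many counts as RPA2, which is therefore uncertain. FEN1, the nuclease that trims Okazaki fragments, and LIG1, the ligase that joins them, had log2 fold changes of 0.03 and -0.04. That of LIG1 was -0.0839 without pair 5 and -0.002 with the length trend removed. For CLSPN and TIMELESS, which stabilize the fork, the log2 fold changes were -0.12 (adjusted p = 0.42 by edgeR) and 0.03. That of CLSPN was -0.08 without pair 2. The subunits of ribonucleotide reductase, which makes the deoxynucleotides, were RRM1 at 227 ± 8.28 and 228 ± 14.6 CPM and RRM2 at 306 ± 15.6 and 312 ± 13.6 CPM in VENsens and VENins lines. Their log2 fold changes were 0.00 and 0.03, and pseudogenes held 14.7% as many counts as RRM2.

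Differences between single lines were as large as those between the groups. The median coefficient of variation of the 48 genes was 5.76% in VENsens and 5.34% in VENins lines, with 16.2% for CDT1 in VENins lines as the highest. VENsens line 2 had the lowest value of its group for 39 of the 48 genes, and VENins line 5 for 23. Averaged over the 48 genes, log2 CPM minus each gene's mean of all libraries was -0.12 in VENsens line 2, between 0.02 and 0.03 in the other VENsens lines and between -0.02 and 0.04 in VENins lines. The groups differed by 0.01 in this average. The summed level of the 48 genes was 8369 ± 417 CPM among VENsens and 8302 ± 230 CPM among VENins lines, with 7629 CPM in VENsens line 2 as the lowest. The MCM2-7 genes were highest on average in VENsens line 1 (0.12), and lowest in VENsens line 2 (-0.13) and VENins line 2 (-0.14).

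**Figure D4:**
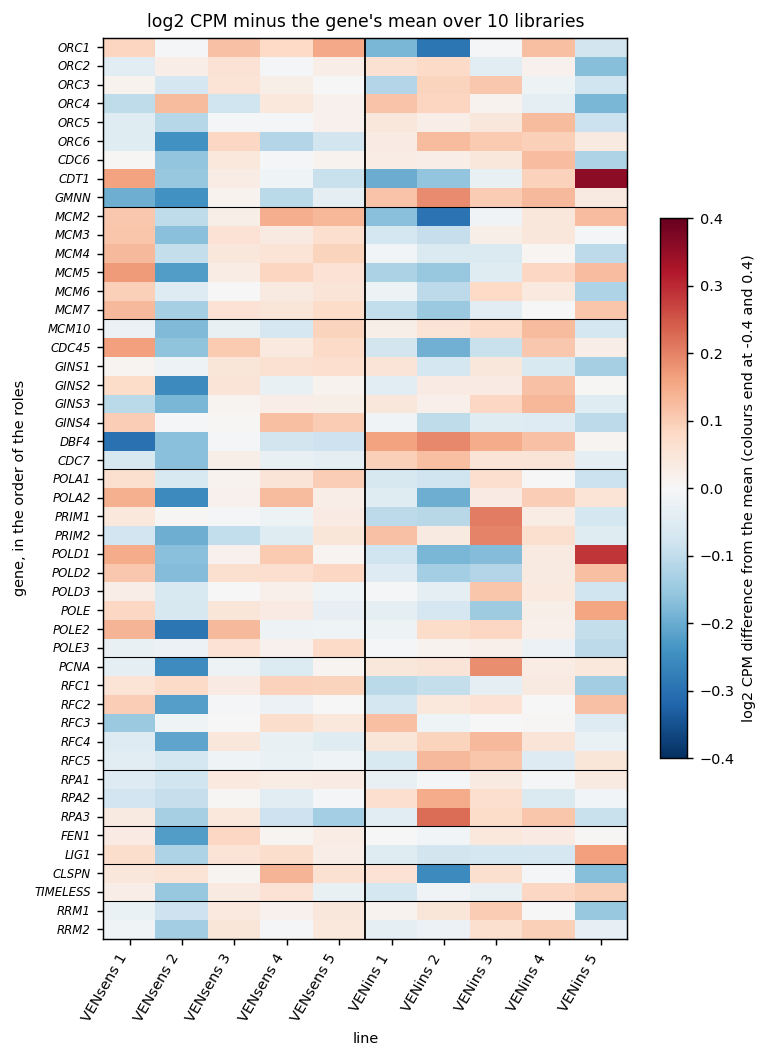
Log2 CPM of each gene (rows, in the order of the roles) minus its mean over the 10 libraries (columns). VENsens line 2 is below the mean for most genes, the MCM2-7 genes are low in VENins lines 1 and 2 as well, and CDT1 and POLD1 are high in VENins line 5.

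Pair by pair, 20, 33, 25, 26 and 19 of the 48 genes were higher in the VENins line in pairs 1 to 5, against 48.7%, 50.3%, 49.8%, 51.0% and 51.7% of all tested genes. The replication genes were thus mostly higher in pair 2, whose VENsens line was the low one, and mostly lower in pairs 1 and 5. In all 5 pairs, 6 of the 48 genes were higher and 3 lower, against 7.61% and 6.66% of all tested genes.

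Counts in VENins lines were shifted towards short genes. The median log2 fold change of the shortest of 3 equal classes of all genes by exonic length was 0.06 and that of the longest -0.04. The replication genes showed the same order, with 0.04 in the 16 shortest genes, of which 12 were higher, 0.00 in the middle class, and -0.03 in the 16 longest, of which 5 were higher. With each library's trend on length removed, the 3 medians were 0.03, 0.00 and 0.00, and 5 of the 48 genes had an unadjusted p under 0.05 in edgeR's test, against 14.6% of all genes in the same fit.

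Other genes of the pathway were taken from 5 lists, and in edgeR with the filter and the line number none of them passed the adjusted test. Of 34 other replication factors, 21 were higher and 13 lower, with a median log2 fold change of 0.02 and 5 with an unadjusted p under 0.05 (14.7%, against 16.2% of all tested genes), led by the histone chaperone ASF1A (0.17, adjusted p = 0.213) and RIF1 (-0.17, adjusted p = 0.243), a regulator of replication timing. RIF1 was at -0.09 with the length trend removed and at -0.11 without pair 2. The median of these factors ran from 0.0033 without pair 3 to 0.04 without pair 1. Of 9 genes of dNTP supply, 4 were higher and 5 lower, with a median of 0.00. Among them thymidylate synthase (TYMS) was at 260.1 ± 11.2 and 280.3 ± 6.10 CPM, a log2 fold change of 0.11 (adjusted p = 0.288 by the test of edgeR), and DTYMK had one of 0.13. Of 25 tested G1/S regulators, 16 were higher and 9 lower, with 5 at an unadjusted p under 0.05 (20%). The largest differences by p among them were in TFDP2, a partner of E2F factors (-0.30, adjusted p = 0.126), and MYBL2 (0.16, adjusted p = 0.2). TFDP2 was called by DESeq2 without the line number and by edgeR with no filter on low counts. The 9 replication checkpoint genes, WEE1 (-0.11) and ATR (-0.09) among them, had none with an unadjusted p under 0.05 and a median of -0.02. The sign of this median depended on the processing, as it was 0.02 with the length trend removed and 0.02 without pair 5. WEE1 was at -0.02 without pair 2 and ATR at -0.02 with the length trend removed.

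The mitotic genes, which are transcribed later in the cycle, differed from the replication genes in their counts. Of 41 tested, 38 were higher in VENins lines, and the median log2 fold change was 0.13. An unadjusted p under 0.05 was found for 20, all of them higher, against the 7.79% of all tested genes given above for this direction. None passed the adjusted test in edgeR with the filter and the line number. Other fits called mitotic genes, all higher: 1 in edgeR without the line number (CENPA), 2 in DESeq2 with it (CENPA and UBE2C) and 3 without it, 10 in edgeR with no filter on low counts and 5 without pair 4, where 1.97% of all genes were called. For CENPA, the centromeric histone, the log2 fold change was 0.38 (adjusted p = 0.0768 by edgeR), and for UBE2C, a ubiquitin-conjugating enzyme of mitotic exit, it was 0.34 (adjusted p = 0.0974). Single lines weighed on these values too: VENsens line 1 was at -0.27 on average over the mitotic genes, while it was at 0.02 over the replication genes. In pair 1 all 41 mitotic genes were higher and in pair 4 only 11 were, and none had groups that did not overlap. The difference between the lists was not tested.

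**Figure D5:**
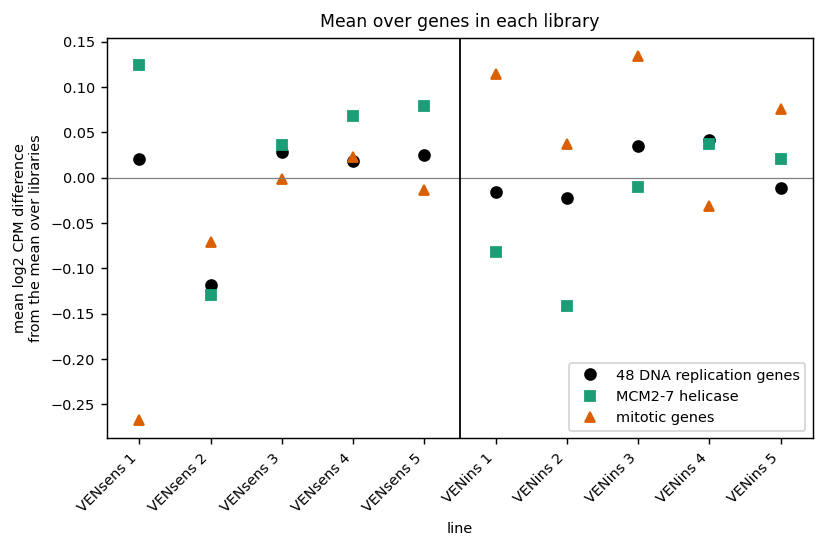
Mean deviation of log2 CPM from the average library (y axis) in each line (x axis) for the 48 replication genes, the 6 MCM2-7 genes and 41 mitotic genes. The replication genes are low in VENsens line 2 at -0.12, and the mitotic genes are low in VENsens line 1 at -0.27.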

How the data were processed

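The authors sequenced 1 library per line and deposited, for each, the raw counts of reads per Ensembl gene, followed by 5 summary lines that were left out here. The submitters' processing notes name bcl2fastq 2.20.0.422, Bowtie2 2.3.5.1, SAMtools 1.9 and HTSeq 0.9.1 with the genome builds hg19 and GRCh37. Between 52.7% and 54.2% of reads were counted on genes, while 24.6% to 26.2% had a low alignment quality and 3.69% to 3.98% were ambiguous. The strand setting is not given in the sources used here.

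The analysis ran under R 4.3.3, with edgeR 4.0.16. filterByExpr (minimum count 10, minimum total count 15) selected the genes, TMM gave the size factors, and a quasi-likelihood F test was applied to line number plus condition, as the study describes a paired analysis. The Benjamini-Hochberg adjustment covered 16756 genes, with a threshold of 0.05. Standard errors are the log2 fold change over the root of F, and a prior count of 2 went into log2 CPM. Names, positions and exonic lengths are from GENCODE 29 (GRCh38), which covered 52526 identifiers, and UHRF1 of the other lists was not matched. DESeq2 1.42.0 was an alternative, as were other size factors, filters, a length correction (natural spline, 4 degrees of freedom) and each pair left out. Figures were drawn with matplotlib 3.10.9 in Python 3.11.15. The steps were tested on simulated data.

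Named genes are those with an adjusted p under 0.05, the MCM2-7 genes, in each of 9 roles the 2 with the smallest p and the one with the highest level per length, and from each other list the 2 with the smallest p. ORC2 to ORC6, CDC6, CDC7, POLD1, POLD2, POLE2, RFC4, RPA1, DNTT and DBF4P1 were named after their values were seen, as was the search of promoters. Members and lists were chosen with earlier results of these data known. Chi-square over degrees of freedom between lines of a group was 1.93 to 14.2 in 20 pairs of lines, so none was counted as a duplicate. The 4 pairs with VENins line 5 had the highest values, 13.3 to 14.2, and the other pairs at most 9.76.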

Additional observations from a re-analysis of the deposited data

Results flagged for a closer look

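Single lines were compared with the other 4 of their group in 146 sets of values, where the gap of the farthest line had to exceed 0.71 of the group's range. This was met in 21 sets, against about 7.3 by chance, since chance alone gives about 1 in 20. VENsens line 2 was the lowest line in 14 of them. Sets of genes and their averages share values, so these are not independent.

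Among the replication genes, VENsens line 2 was far below the other VENsens lines for CDC6 (93.2 CPM), MCM3 (536 CPM), POLD2 (85.2 CPM), PCNA (421 CPM), FEN1 (174 CPM) and LIG1 (146 CPM). VENins line 3 was far above the other VENins lines for PCNA (571 CPM) and VENins line 5 for LIG1 (178 CPM). In mean deviations of log2 CPM from the average library, VENsens line 2 stood apart over all 48 genes (-0.12), helicase activation (-0.14), polymerases and primase (-0.13), clamp and clamp loader (-0.12), Okazaki fragment maturation (-0.17) and the other replication factors (-0.0805), and VENins line 5 over Okazaki fragment maturation (0.0847).

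In genes of the other lists, VENsens line 2 was far below its group for DTYMK (52.8 CPM) and MYBL2 (253 CPM), VENsens line 1 for ASF1A (102 CPM), VENins line 2 for WEE1 (81.5 CPM) and VENins line 4 for CENPA (34.8 CPM), and VENins line 5 was far above for DTYMK (83.2 CPM). Without pair 2 the log2 fold change of WEE1 went from -0.11 to -0.0204, that of DTYMK from 0.13 to 0.0605 and that of MYBL2 from 0.16 to 0.12. Without pair 1 that of ASF1A went from 0.17 to 0.11, without pair 4 that of CENPA from 0.38 to 0.47, and without pair 5 that of DTYMK to 0.0745.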

How the results depend on the processing

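The line numbers do not pair the libraries by their values: deviations from the group means correlated between lines of the same number with r from -0.36 to 0.12 over 9973 genes, and 0 of 5 VENsens lines correlated best with their own number. The number was kept as a replicate block because the study describes a paired analysis. Without the block, edgeR called 1 of the 48 genes in place of 0, and DESeq2 called 1 with the block and 3 without it. EdgeR with no filter on low counts called 2, and 2.02% of all genes. RLE size factors, library size alone, at least 10 counts in every library and the length correction called 0, as did each fit without a pair (0 to 0). The cause was not tested.

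The count of genes with an unadjusted p under 0.05 was 8, and 5 with the length trend removed (14.6% of all genes in that fit). It ran from 4 without pair 2 (8.33%, all genes 8.41%) to 13 without pair 5 (27.1%, all genes 16.45%). The count of genes whose groups do not overlap was 4, and 1 both with library size alone and with the length trend removed. For these 2 settings no share of all genes is given. The median log2 fold change ran from -0.01 to 0.02 with pairs left out.

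Directions turned for genes with log2 fold changes near 0. RRM1 was at -0.0029 with library size alone. With pairs left out, RRM1 ran from -0.0284 to 0.0534, CDT1 from -0.0778 to 0.1235, FEN1 from -0.0195 to 0.0433, MCM5 from -0.0772 to 0.0139 and TIMELESS from -0.0028 to 0.0551. With pairs left out the adjusted p of DBF4 ran from 0.0778 to 0.491. Alternatives for the other lists, given beside their results, were added after the values were seen.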
